A study of Mus musculus with 6 samples.

Results

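The nucleosome remodeling and deacetylase (NuRD) complex was examined through the transcripts of 10 of its subunits in adult mouse megakaryocyte–erythroid progenitors (MEPs) with and without induced *Nanog*. The 10 genes were chosen by name, as the rows of the deposited table whose Ensembl identifier maps to *Hdac1*, *Hdac2*, *Chd4*, *Mbd3*, *Mta1*, *Mta2*, *Gatad2a*, *Gatad2b*, *Rbbp4* and *Rbbp7*. All 10 were present among the 12101 genes listed and all 10 passed the filter on low values. The rule is by name and uses no measured value, but the genes were picked with earlier results of these data known.

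RNA was sequenced from bone marrow MEPs of adult Nanog-tg mice, given as strain CD-1, with 3 dox-treated and 3 untreated libraries. Every mouse carried the reverse tetracycline transactivator M2-rtTA at *Rosa26* and *Nanog* under a tetO promoter at *Col1a1*, and the untreated mice carried both as well. The dox-treated group drank doxycycline (dox) for 5 days. MEPs are the progenitors of erythrocytes and of platelet-forming megakaryocytes, and were sorted as lineage-negative, cKit-positive, Sca1-negative cells that lack CD34 and CD16/32. Because *Rosa26* is active in most tissues, dox can switch on *Nanog* in the whole animal and not in MEPs alone. Nothing in the sources says whether a replicate was a single mouse or a pool, so p-values measure only the spread between these libraries, which may in part be technical. In such bulk samples fewer cells of a type and less RNA per cell cannot be told apart.

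NuRD joins 2 activities in a single complex, the removal of acetyl groups from histones and the ATP-driven sliding of nucleosomes, and is best known for lowering or fine-tuning transcription. Its deacetylases are HDAC1 and HDAC2, its remodeler is CHD4, MTA proteins form the scaffold for the deacetylases, MBD3 or MBD2 and the GATAD2 proteins link the deacetylases to the remodeler, and RBBP4 and RBBP7 bind histones. In embryonic stem cells NANOG has been purified together with NuRD subunits, and in erythroid and megakaryocytic cells GATA1 brings NuRD to its targets through its cofactor FOG1, which *Zfpm1* encodes.

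The stretches just before the RefSeq transcription starts of 3 members are shown, because they belong to the member with the smallest p-value (*Mbd3*), the only member with a higher mean under dox (*Gatad2b*) and the most abundant member in reads (*Chd4*). Sequences are from the RefSeq promoter table of GRCm38.p6, and each was found exactly once in NCBIM37, the build of the deposited values, at the positions given here. They lie at chr10:79862296-79862526 on the minus strand for *Mbd3*, at chr3:90096853-90097102 on the plus strand for *Gatad2b* and at chr6:125045749-125045998 on the plus strand for *Chd4*, and are written 5′ to 3′ along the gene. Capitals mark matches on either strand to the CCAAT box, searched by those letters, to the GC box, searched as GGGCGG, to a core of the NANOG motif, searched as TAATGG, and to the motif bound by GATA factors, searched as AGATAA. No match overlapped another in these 3 stretches. Bases that NCBIM37 annotates as exon were cut off, which left 231 bases for *Mbd3* and 205 for *Mta2*, and 250 for the others.
Mbd3: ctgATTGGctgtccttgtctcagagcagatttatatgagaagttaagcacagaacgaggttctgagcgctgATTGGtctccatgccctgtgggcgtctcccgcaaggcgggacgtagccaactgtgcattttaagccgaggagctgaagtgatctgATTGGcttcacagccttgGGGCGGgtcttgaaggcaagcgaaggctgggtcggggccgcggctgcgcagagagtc
Gatad2b: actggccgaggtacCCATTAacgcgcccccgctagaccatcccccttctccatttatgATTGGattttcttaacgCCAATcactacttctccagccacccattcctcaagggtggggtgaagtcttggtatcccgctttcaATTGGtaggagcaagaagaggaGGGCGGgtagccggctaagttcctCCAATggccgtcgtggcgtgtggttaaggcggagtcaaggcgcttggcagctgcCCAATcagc
Chd4: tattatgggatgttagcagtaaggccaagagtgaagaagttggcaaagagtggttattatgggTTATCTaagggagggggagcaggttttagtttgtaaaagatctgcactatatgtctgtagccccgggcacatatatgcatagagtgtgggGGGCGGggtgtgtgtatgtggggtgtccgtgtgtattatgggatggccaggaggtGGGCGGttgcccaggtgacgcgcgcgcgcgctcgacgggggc

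The *Mbd3* stretch held 3 CCAAT matches and 1 GC box, the *Gatad2b* stretch 5 CCAAT matches, 1 GC box and 1 TAATGG match, and the *Chd4* stretch 2 GC boxes and 1 AGATAA match. Upstream stretches were found for 9 of the 10 members, all but *Hdac1*. GC box letters occurred in 9 of the 9 and CCAAT in 5 of the 9, against 32.7% and 33.8% of the 32851 RefSeq windows of 250 bases. TAATGG occurred in the first listed window of 1 member, *Gatad2b*, against 6.57% of all windows, and AGATAA in that of 1 member, *Chd4*, against 9.99%. Searched as well, but not marked in capitals, were a core of the ETS motif, CCGGAAG, and a core of the E2F motif, TTCCCGC. The ETS core occurred in 0 of the 9 stretches and, before exon bases were cut off, in the window of 1 member, *Mta2*, with 2 overlapping matches, against 6.91% of all windows. The E2F core occurred in 1 of the 9, *Gatad2a*, against 3.82%. These are matches of letters and not measured binding sites.

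The groups were checked first on the induced gene. *Nanog*, which encodes a pluripotency factor, had 17062, 19609 and 15959 reads in the dox-treated libraries and 9, 13 and 1 in the untreated ones (log2 fold change 11.37, adjusted p = 0.0035, limma). The table has a single *Nanog* row, so reads of the transgene and of the endogenous gene cannot be told apart. All 10 MEP markers, among them *Gata1*, *Klf1* and *Kit*, were listed, and their summed level was 2757 to 3041 read counts scaled to the same library size (CPM, per 1000000 reads) with dox and 3461 to 3651 CPM without. Libraries held 11264803 to 16153600 reads on listed genes, and dox-treated replicate 3 stood apart from the other dox-treated libraries on the second principal component, at -51.7 against 15.4 and 11.9. Over all 12088 genes tested 555 were higher and 384 lower with dox at an adjusted p under 0.05 (limma), which is 7.77% of the genes.

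No NuRD member changed at that threshold. The count was 0 of 10 (limma), against the 7.77% of all genes, and 1 member, *Mbd3*, had an unadjusted p under 0.05, against 3533 of the 12088 genes. In 9 of the 10 members the dox-treated mean was below the untreated mean, the exception being *Gatad2b*, and 52.7% of all genes had a lower mean. The median log2 fold change of the members was -0.17 and that of all genes tested -0.03. The gap between them was gone with quantile normalization, where the medians were -0.0449 for the members and -0.0457 for all genes, and with scaling to the total reads they were -0.06 and 0.08. With quantile normalization 6 of the 10 means were lower, against 6673 of the 12088 genes. With scaling to the total reads 8 of the 10 were, against 4970 of the 12088, so the sign of *Mta2*, *Rbbp4* and *Rbbp7* depends on the scaling. Under these 2 scalings the log2 fold changes were also nearer to 0 for *Mbd3* (-0.18 in both), *Hdac1* (-0.13 and -0.14), *Mta1* (-0.10 and -0.11), *Gatad2a* (-0.08 and -0.09) and *Hdac2* (-0.08 in both), while *Gatad2b* lay at 0.16 and 0.31. Differences were small on the linear scale as well: the fitted levels with dox were between 0.819 and 1.15 times those without, and the 95% intervals of the members together reached from 0.659 to 1.47 times.

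**Figure D1:**
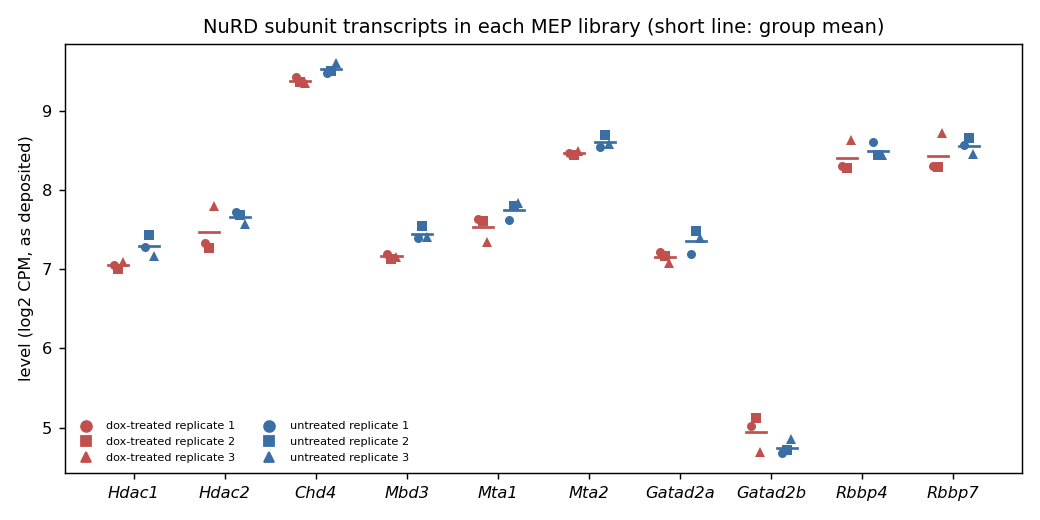
Each point is the deposited log2 CPM of a NuRD member in 1 library, red for dox-treated and blue for untreated MEPs, with the marker shape giving the replicate and a short line the mean of the group (n = 3). *Chd4* lies highest, between 9.35 and 9.60, and *Gatad2b* lowest, between 4.67 and 5.12, and the red and blue points of most members overlap or lie close together.

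All 10 members were well covered, with 317 to 10165 reads in a library. Compared per length, as reads per kilobase of the longest protein-coding transcript in each 1000000 reads (RPKM), *Rbbp7* was highest in untreated MEPs at 168.5 ± 11.7 RPKM (SD, n = 3), followed by *Mta2* at 124.7 ± 7.04, *Chd4* at 109.9 ± 5.05 and *Mbd3* at 105.2 ± 6.12. *Rbbp4* (81.8 ± 5.41), *Hdac1* (77.3 ± 7.22), *Mta1* (76.4 ± 5.84) and *Hdac2* (62.2 ± 3.35) came next, and *Gatad2a* (31.5 ± 3.24) and *Gatad2b* (14.1 ± 0.920) were lowest. The libraries of *Chd4* and *Mbd3* overlapped, as did those of *Rbbp4* and *Hdac1* and those of *Hdac1* and *Mta1*, so these neighbours did not differ beyond their spread. In dox-treated MEPs the order was the same except that *Mta1* stood above *Hdac1*. The order of the middle members depends on the length used. With merged exons in place of the longest transcript *Rbbp4* moved from rank 5 to rank 8. The annotated *Gatad2b* gene starts 48473 bases after the RefSeq start shown above, so its length here is that of a partial gene and its level per length is uncertain. The level of *Hdac1* relative to *Hdac2* and the other members is uncertain too, since much of its exon sequence also occurs in *Gm10093*. In the untreated libraries *Gm10093* had 1033, 1308 and 930 reads and *Hdac1* had 2003, 2340 and 1579.

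The deacetylases come first by role. *Hdac1* (ENSMUSG00000028800, chr4:129193348-129219957, minus strand) had 132.9, 128.0 and 136.5 CPM in the dox-treated and 155.8, 172.9 and 143.6 CPM in the untreated libraries. Every dox-treated library was below every untreated one, with means of 132.5 ± 4.28 CPM against 157.4 ± 14.7 CPM (SD, n = 3 each). The log2 fold change given by limma was -0.25 with a standard error of 0.11, a 95% interval of -0.52 to 0.03 and an adjusted p of 0.204. Of the distinct words of 36 bases in the exons of *Hdac1*, 43.1% also occur in another gene, chiefly in *Gm10093*, which is listed with 930 to 1308 reads a library. When the reads of both were summed, an alternative chosen after seeing the data, the log2 fold change was -0.23 (adjusted p = 0.215, limma), close to that of *Hdac1* alone.

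*Hdac2* (ENSMUSG00000019777, chr10:36694350-36721695, plus strand) had log2 CPM values of 7.33, 7.27 and 7.80 with dox and 7.72, 7.68 and 7.57 without. Dox-treated replicates 1 and 2 were below all untreated libraries and replicate 3 was above all of them, so the groups overlapped. The log2 fold change given by limma was -0.19 with a standard error of 0.17 and an adjusted p of 0.479. Without dox-treated replicate 3 it was -0.36 and the adjusted p was 0.045, in a fit where 28.9% of all genes passed the threshold. Without dox-treated replicate 1 or 2 it shrank to -0.12 (adjusted p = 0.764, limma) and -0.09 (adjusted p = 0.819, limma). With array quality weights, which give less weight to libraries that vary more, *Hdac2* (adjusted p = 0.040) and *Mbd3* (adjusted p = 0.032) passed, and 42.3% of all genes did. *Hdac2* was the only member called in any fit with a library left out, and the share called in both fits was higher for the whole table.

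*Chd4* (ENSMUSG00000063870, chr6:125045999-125080609, plus strand), the ATP-dependent remodeler, had the most reads of any member. Its log2 CPM values were 9.42, 9.36 and 9.35 with dox and 9.47, 9.50 and 9.60 without, which is 665.2 ± 18.0 CPM against 735.9 ± 33.8 CPM (SD, n = 3 each). The groups did not overlap, but the gap between dox-treated replicate 1 and untreated replicate 1 was small beside the spread of the untreated libraries. The log2 fold change given by limma was -0.15 with a standard error of 0.10, a 95% interval of -0.38 to 0.09 and an adjusted p of 0.350. It was -0.01 with quantile normalization and -0.03 with scaling to the total reads.

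*Mbd3* (ENSMUSG00000035478, chr10:79855284-79862295, minus strand), whose protein holds the complex together and sets it apart from the form with MBD2, had the smallest p-value among the members. It had log2 CPM values of 7.20, 7.13 and 7.16 in the dox-treated and 7.40, 7.54 and 7.40 in the untreated libraries. In CPM this was 143.1 ± 3.58 against 174.8 ± 10.2 (SD, n = 3 each), and all dox-treated libraries, replicate 3 included, were below all untreated ones. The log2 fold change was -0.29 (standard error 0.10, 95% interval -0.53 to -0.05), a fitted level 0.819 times that without dox. Over all genes tested the adjusted p was 0.120 (limma), and over the alternatives it ran from 0.032 to 0.334. The log2 fold change stayed between -0.31 and -0.18 under all 17 alternatives.

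The MTA scaffold subunits were both lower in mean. *Mta1* (ENSMUSG00000021144, chr12:114336489-114375417, plus strand) had log2 CPM values of 7.63, 7.61 and 7.34 with dox and 7.62, 7.80 and 7.83 without, so that dox-treated replicates 1 and 2 lay beside untreated replicate 1 and the groups overlapped. Its log2 fold change in limma was -0.22 ± 0.13 (SE), with an adjusted p of 0.294, and became -0.13 without dox-treated replicate 3. *Mta2* (ENSMUSG00000071646, chr19:9016365-9026793, plus strand) had values of 8.47, 8.44 and 8.49 with dox and 8.54, 8.70 and 8.59 without. Its groups did not overlap, but its log2 fold change in limma was -0.15 ± 0.10 (SE), with an adjusted p of 0.356, and became 0.04 with quantile normalization.

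The GATAD2 subunits, zinc finger proteins that tie CHD4 to the rest of the complex, had mean differences of opposite sign. *Gatad2a* (ENSMUSG00000036180, chr8:72430968-72520278, minus strand) had log2 CPM values of 7.21, 7.17 and 7.08 with dox and 7.19, 7.48 and 7.40 without, with a limma estimate of -0.20 ± 0.12 (SE) for the log2 fold change and an adjusted p of 0.303. Untreated replicate 1 lay among the dox-treated libraries. *Gatad2b* (ENSMUSG00000042390, chr3:90145576-90162042, plus strand) had values of 5.03, 5.12 and 4.69 with dox and 4.67, 4.72 and 4.85 without. Dox-treated replicates 1 and 2 were above every untreated library, and replicate 3 lay within the untreated range. For *Gatad2b* the log2 fold change in limma was 0.20 ± 0.14 (SE, 95% interval -0.16 to 0.55) with an adjusted p of 0.393, and 0.33 (adjusted p = 0.064) without replicate 3. It was 0.11 (adjusted p = 0.731, limma) without dox-treated replicate 2.

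The histone chaperones *Rbbp4* and *Rbbp7*, which NuRD shares with other complexes such as CAF-1, SIN3 and Polycomb repressive complexes, had the smallest differences in the fit of all libraries. *Rbbp4* (ENSMUSG00000057236, chr4:128984344-129012614, minus strand) had log2 CPM values of 8.31, 8.27 and 8.63 with dox and 8.60, 8.44 and 8.44 without, with a limma estimate of -0.09 ± 0.14 (SE) for the log2 fold change and an adjusted p of 0.686. *Rbbp7* (ENSMUSG00000031353, chrX:159198334-159217024, plus strand) had 8.30, 8.29 and 8.71 with dox and 8.57, 8.66 and 8.46 without, with a limma estimate of -0.13 ± 0.15 (SE) for the log2 fold change and an adjusted p of 0.603. In both, replicates 1 and 2 were below all untreated libraries and replicate 3 above all of them, the same arrangement as in *Hdac2*. Without that replicate the log2 fold changes were -0.20 (adjusted p = 0.160, limma) for *Rbbp4* and -0.27 (adjusted p = 0.095, limma) for *Rbbp7*, larger in size than those of *Mta1*, *Chd4*, *Mta2* and *Gatad2a* in the same fit. Leaving out dox-treated replicate 2 shrank them instead, to -0.02 (adjusted p = 0.945, limma) for *Rbbp4* and -0.06 (adjusted p = 0.890, limma) for *Rbbp7*, and leaving out dox-treated replicate 1 gave -0.04 and -0.06. Without untreated replicate 1 *Rbbp4* lay at -0.03 and without untreated replicate 2 *Rbbp7* lay at -0.08. Reads of these members are uncertain in part. *Rbbp4* shares 19.3% and *Rbbp7* 12.2% of its words of 36 bases with other genes, and their exons overlap *Sync* and *Gm17525*, and *Txlng*, on the opposite strand, where the use of strand in counting is not given in the sources used here.

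**Figure D2:**
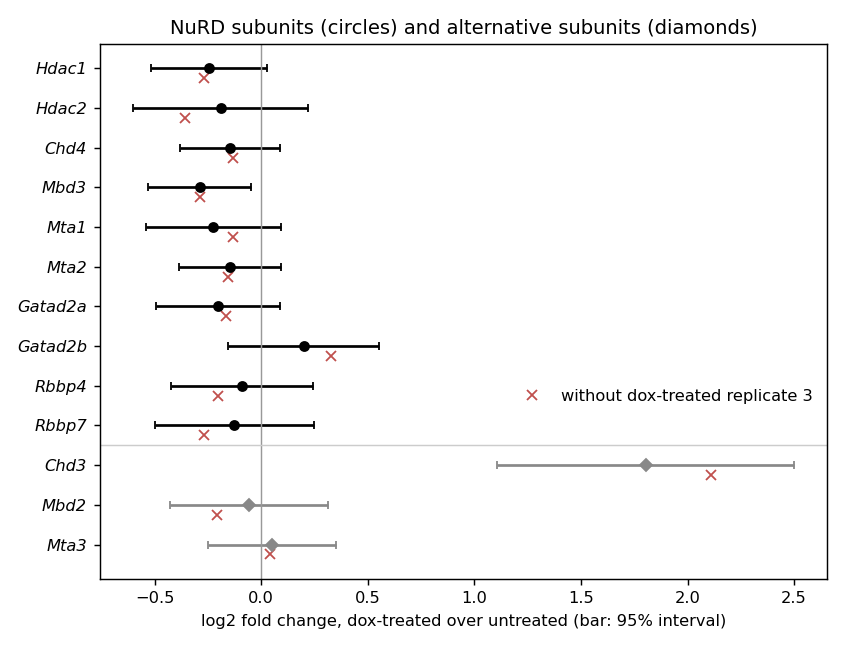
Points give the log2 fold change of dox-treated over untreated MEPs from limma with 95% intervals (3 libraries against 3), circles for the 10 NuRD members and diamonds for the alternative subunits *Chd3*, *Mbd2* and *Mta3*, and red crosses give the value without dox-treated replicate 3. The members lie between -0.29 and 0.20, while *Chd3* lies at 1.80.

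Across the members 4 of 10, *Hdac1*, *Chd4*, *Mbd3* and *Mta2*, had every dox-treated library below every untreated library, which 18.2% of all genes tested had. In 0 of 10 was every dox-treated library above every untreated one, against 17.7% of all genes. The summed level of the 10 members was 2490, 2422 and 2652 CPM in the dox-treated and 2754, 2883 and 2784 CPM in the untreated libraries, so these sums did not overlap. These statements depend on the scaling of the libraries. With reads scaled to the total over the listed genes, *Mbd3* alone had every dox-treated library below every untreated one, 1 of 10 against 13.1% of all genes, and the summed levels overlapped, with 2676, 2621 and 2559 CPM with dox and 2659, 2728 and 2717 CPM without. The spread around the group means was small, with a median residual SD of 0.13 in log2 CPM for the members against 0.20 over all genes tested.

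Dox-treated replicate 3 differed from dox-treated replicates 1 and 2 less in the members than over all genes. The median absolute difference in log2 CPM was 0.20 for the members and 0.33 for all genes tested. Relative to the mean of dox-treated replicates 1 and 2, dox-treated replicate 3 was higher by 0.50 for *Hdac2*, 0.42 for *Rbbp7* and 0.34 for *Rbbp4*. It was below that mean for *Gatad2b* (-0.38) and *Mta1* (-0.28), and between -0.11 and 0.07 from it for the other 5. The 26 proliferation genes were also higher in this library in their sum. Their summed level was 6465, 6303 and 9562 CPM in the dox-treated and 9630, 9952 and 8871 CPM in the untreated libraries, and 17 erythroid markers summed to 6878, 6566 and 11264 CPM with dox and to 9360 to 9857 CPM without. Of these 17 markers, 11 had a lower and 6 a higher mean with dox. Past the threshold were 2 of the 17, both lower (limma), against 7.77% of all genes in both directions. The part of the cell cycle or of erythroid cells in the levels of *Hdac2*, *Rbbp4* and *Rbbp7* was not tested.

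**Figure D3:**
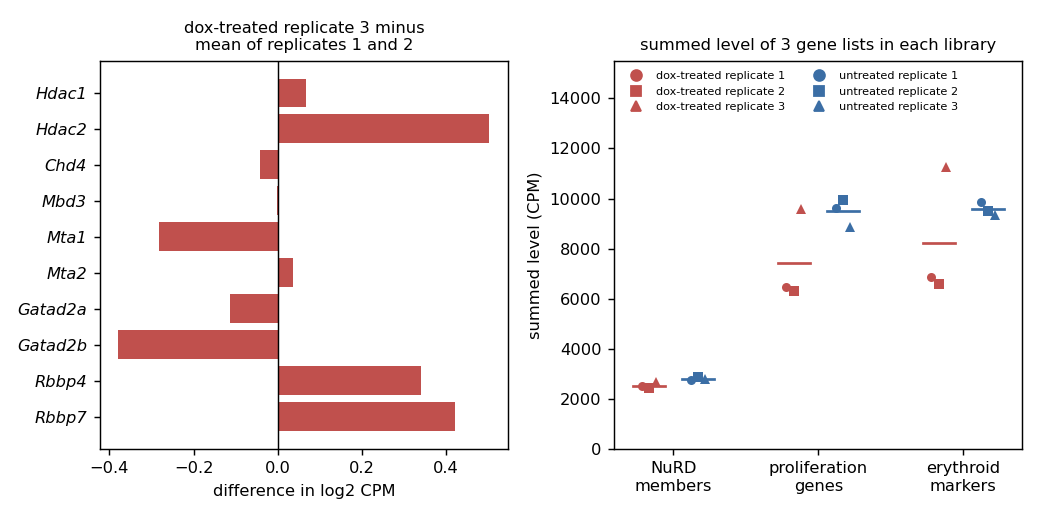
The left panel gives, for each NuRD member, the log2 CPM of dox-treated replicate 3 minus the mean of dox-treated replicates 1 and 2, and the right panel the summed CPM of 3 gene lists in each library (short lines are group means, n = 3). *Hdac2*, *Rbbp7* and *Rbbp4* are higher in replicate 3 by 0.34 to 0.50, and the sums of proliferation genes and erythroid markers are also higher in that library than in the other dox-treated ones.

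Cells of other lineages were followed through their markers. The 16 granulocyte-monocyte markers summed to 563 to 827 CPM with dox and to 2576 to 5965 CPM without, and 12 of the 16 passed the threshold (limma), all lower, against 7.77% of all genes in both directions. Of 11 mast cell and basophil markers 6 were listed, summing to 242 to 443 CPM with dox and 76.9 to 148 CPM without, with 3 of the 6 higher past the same threshold. In 1 of the 6 the mean was lower, at a log2 fold change of -0.93. Of 11 megakaryocyte markers 9 were listed, at 157 to 476 CPM with dox and 97.8 to 150 CPM without, with 2 of the 9 higher and 1 lower past that threshold. With median-ratio scaling or scaling to the total, 1 was higher and 1 lower. Without dox-treated replicate 3, 5 of the 9 passed, where 28.9% of all genes did. Of 13 lymphoid markers 8 were listed and 0 of the 8 passed (limma, with 0 at an unadjusted p under 0.05), at 21.1 to 84.2 CPM with dox and 22.3 to 27.3 CPM without. The defining markers that were not listed were *Fcer1a*, *Mcpt4*, *Cma1*, *Tpsb2* and *Hdc* for mast cells, *Gp6* and *Ppbp* for megakaryocytes and *Pax5*, *Rag2* and the *Cd3* genes for lymphoid cells. The part of these cell types in the differences of the NuRD members was not tested.

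Several NuRD subunits have a paralog that takes the same place in the complex, and their ratio within a library does not depend on scaling between libraries. A total of 6 pairs was compared by two-sided exact permutation tests over 3 libraries against 3, for which the smallest possible p is 0.1, so that no pair could pass 0.05. For *Chd4* over *Chd3* the ratio of reads per length was 2.55, 2.20 and 4.34 in the dox-treated and 11.9, 11.7 and 10.01 in the untreated libraries. The log2 ratio was 1.54 ± 0.516 with dox and 3.49 ± 0.140 without (SD, n = 3 each; exact permutation test, p = 0.1, adjusted over 6 pairs p = 0.3), a difference of -1.95. CHD3 is an alternative remodeler of NuRD, and the ratio of *Chd4* to *Chd3* was thus lower in every dox-treated library than in any untreated one. Since the fitted value of *Chd4* itself was -0.15, the larger part of that difference lay in *Chd3*.

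For *Gatad2a* over *Gatad2b* the log2 ratio of reads per length was 0.74, 0.60 and 0.93 with dox and 1.06, 1.32 and 1.09 without. The groups did not overlap, with a difference of -0.40 (exact permutation test, n = 3 each, p = 0.1, adjusted over 6 pairs p = 0.3) that was -0.49 without dox-treated replicate 3. Lack of overlap was common among single genes. Every dox-treated library was below every untreated one in 18.2% of all genes tested and above in 17.7%. The same share for ratios of genes was not computed. The other 4 pairs overlapped between groups. Their differences in log2 ratio were -0.06 for *Hdac1* over *Hdac2*, -0.08 for *Mta1* over *Mta2*, 0.04 for *Rbbp4* over *Rbbp7* and -0.23 for *Mbd3* over *Mbd2* (exact permutation p between 0.2 and 0.8, n = 3 each). The *Hdac1* to *Hdac2* difference was 0.09 and the *Mta1* to *Mta2* difference 0.03 without dox-treated replicate 3, and the *Rbbp4* to *Rbbp7* difference was -0.04 without untreated replicate 2, so none of these 3 kept its sign. The *Mbd3* to *Mbd2* difference stayed negative and was -0.08 without dox-treated replicate 3.

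**Figure D4:**
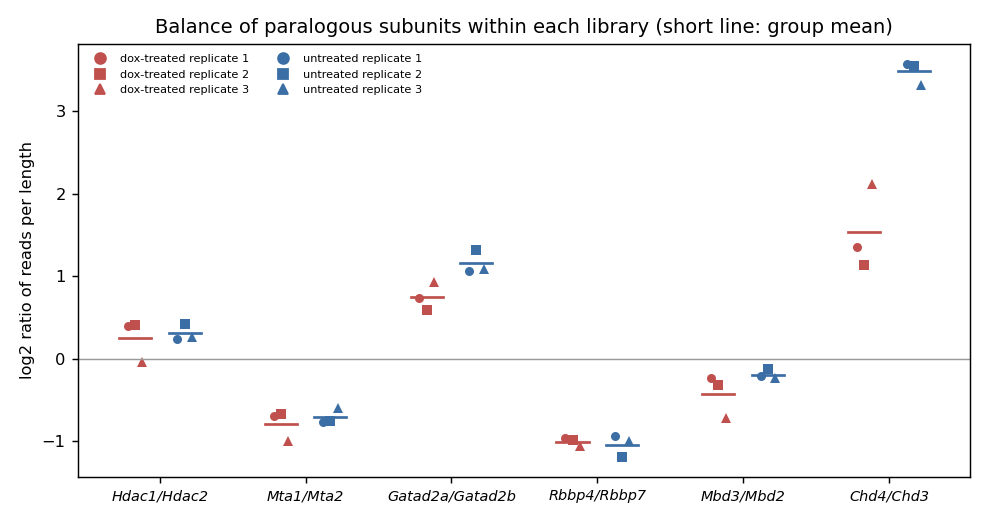
Each point is the log2 ratio of reads per kilobase of transcript between the first and the second gene of a pair in 1 library, red for dox-treated and blue for untreated MEPs, with short lines for group means (n = 3). Only for *Gatad2a*/*Gatad2b* and *Chd4*/*Chd3* do the groups not overlap, and the *Chd4*/*Chd3* points lie between 3.32 and 3.58 without dox and at no more than 2.12 with dox.

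Of 9 alternative and accessory NuRD subunits 8 were listed, all but *Chd5*, with a median log2 fold change of -0.02 that was 0.08 with quantile normalization and 0.09 with scaling to the total. At an adjusted p under 0.05, 1 of the 8 was higher and 0 were lower (limma), against 7.77% of all genes, and 3 of the 8 had an unadjusted p under 0.05, against 29.2%. The call was *Chd3* (chr11:69156775-69182928, minus strand). Its reads numbered 3952, 4356 and 2537 in the dox-treated libraries and 828, 904 and 921 in the untreated ones, or 259.4 ± 85.3 CPM against 71.7 ± 10.6 CPM (SD, n = 3 each). Its log2 fold change in limma was 1.80 ± 0.28 (SE, 95% interval 1.11 to 2.50), a level 3.49 times that without dox, with an adjusted p of 0.024. The lowest dox-treated library was above the highest untreated one. Under the alternatives the log2 fold change stayed between 1.61 and 2.11, and the adjusted p was under 0.05 in 11 of 17. It was between 0.073 and 0.086 without dox-treated replicate 1 or 2 or any of the untreated replicates, 0.098 with the replicate number as a block, and 0.0051 without dox-treated replicate 3. In all, 4.78% of the words of *Chd3* occur in another gene, chiefly *Gm17305*.

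The intervals of the 2 other alternative subunits included 0. *Mbd2*, which replaces MBD3 in a separate form of the complex and binds methylated DNA, had 7.66, 7.67 and 8.11 log2 CPM with dox and 7.84, 7.90 and 7.87 without (log2 fold change -0.06, 95% interval -0.43 to 0.32, adjusted p = 0.826, limma). *Mta3* had 6.33, 6.26 and 6.31 with dox and 6.05, 6.38 and 6.32 without (log2 fold change 0.05, 95% interval -0.25 to 0.35, adjusted p = 0.807, limma). Under the alternatives the log2 fold change of *Mbd2* ran from -0.21 to 0.06 and that of *Mta3* from -0.05 to 0.16, so neither kept its sign. The accessory subunit gene *Cdk2ap2* had a limma log2 difference of -0.41 (adjusted p 0.062), and its dox-treated libraries, at 36.5 to 41.5 CPM, were all below the untreated ones, at 50.6 to 52.2 CPM.

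Among 17 factors known to recruit or bind NuRD, 12 were listed, and *Sall1*, *Sall4*, *Bcl11b*, *Zfp423* and *Pou5f1* were not. Of these 12, 2 were higher and 0 lower at an adjusted p under 0.05 (limma, 7.77% of all genes in both directions), namely the induced *Nanog* and *Ikzf2*, which encodes the Ikaros family zinc finger protein Helios. At an unadjusted p under 0.05 there were 8 of the 12, against 29.2% of all genes, and the median log2 fold change was -0.22. Lower at that p were 5 of the 12, against 1645 of the 12088 genes tested. Every dox-treated library was below every untreated one in 8 of the 12, against 18.2% of all genes, and in 4 of the 12, against 13.1%, with scaling to the total. With that scaling 3 of the 12 were lower at an unadjusted p under 0.05, against 1100 of the 12088 genes tested. With quantile normalization *Ikzf3*, an Ikaros family gene named here after its values were seen, passed as well and was lower. *Ikzf3* had only 2, 11 and 3 reads with dox and 19, 21 and 16 without, and reached 1 CPM in the untreated libraries alone. With the deposited scaling its adjusted p was 0.071 (limma), so no weight is put on this low gene. *Ikzf2* had 763, 893 and 361 reads with dox and 152, 119 and 154 without (log2 fold change in limma 1.96 ± 0.43 SE, adjusted p 0.049). Its adjusted p was under 0.05 in 8 of 17 alternatives, was between 0.117 and 0.151 without dox-treated replicate 1 or 2 or any of the untreated replicates, 0.142 with the replicate number as a block and between 0.05005 and 0.058 with voom weights, median-ratio scaling or scaling to the total, and was 0.0070 without dox-treated replicate 3. *Ikzf1*, the gene of the founding family member Ikaros, named here after its values were seen, had 548.2 to 588.5 CPM without dox and 360.8 to 460.5 CPM with dox (log2 fold change -0.51, adjusted p = 0.066, limma).

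The factors that bring NuRD to GATA sites had lower means. *Zfpm1* had 341.4, 336.2 and 292.8 CPM with dox and 382.3, 550.5 and 440.8 CPM without (log2 fold change -0.49, adjusted p = 0.117, limma). *Gata1* had 159.3, 149.2 and 206.9 CPM with dox and 220.3, 245.0 and 223.2 CPM without (log2 fold change -0.43, adjusted p = 0.130, limma). Neither passed the threshold. Without dox-treated replicate 3 *Gata1* did, at -0.57 on the log2 scale (adjusted p = 0.020, limma), and *Zfpm1* did not (-0.42, adjusted p = 0.127, limma), in a fit where 28.9% of all genes passed. As in *Hdac2*, the *Gata1* level of dox-treated replicate 3 was above that of the other dox-treated libraries.

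Corepressor complexes that share subunits or enzymes with NuRD were read in the same fit, in which 29.2% of all genes tested had an unadjusted p under 0.05 and 7.77% passed the threshold. In the SIN3 complex, which also holds HDAC1, HDAC2, RBBP4 and RBBP7, 0 of 13 genes passed (limma, with 2 at an unadjusted p under 0.05) and the median log2 fold change was 0.01, or 0.12 with scaling to the total. The smallest p-values were those of *Arid4b* (log2 fold change 0.45, adjusted p = 0.0506, limma) and *Sin3b* (0.32, adjusted p = 0.085). *Arid4b* passed as the only SIN3 gene with each of the 3 other scalings of the libraries. In the CoREST complex, which pairs HDAC1 or HDAC2 with the demethylase KDM1A, 0 of 8 passed (limma, with 3 at an unadjusted p under 0.05) and the median was 0.17, against -0.03 over all genes (0.28 against 0.08 with scaling to the total), with *Rcor1* at -0.38 (adjusted p = 0.076, limma) and *Rcor3* at 0.44 (adjusted p = 0.091, limma). The third scaffold gene, *Rcor2*, lay at 0.11 (adjusted p = 0.776, limma).

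The 5 genes of CAF-1 and of other histone handling proteins that work with RBBP4 or RBBP7 had a median of -0.27 in log2 fold change, or -0.16 with scaling to the total, and 0 of 5 passed (limma, with 1 at an unadjusted p under 0.05). *Chaf1a* had a limma log2 difference of -0.38 (adjusted p 0.128) and *Hat1*, a histone acetyltransferase gene, of -0.47 (adjusted p = 0.219, limma). In *Hat1* dox-treated replicate 3, at 7.39 log2 CPM, was again above replicates 1 and 2, at 6.72 and 6.69. Of the other zinc-dependent histone deacetylases 8 genes were tested, with a median of 0.33 (0.20 with quantile normalization) and 0 past the threshold (limma, with 3 at an unadjusted p under 0.05). *Hdac5*, a class IIa deacetylase gene, had 1086, 921 and 411 reads with dox and 247, 189 and 208 without (log2 fold change 1.61, adjusted p = 0.077, limma). *Hdac9*, of the same class, had 189, 63 and 49 reads with dox and 27, 19 and 15 without (log2 fold change 1.86, adjusted p = 0.091, limma). *Hdac5* and *Hdac9* were named for the smallest p-values of the 8, so no comparison is drawn with *Hdac1* and *Hdac2*, at -0.25 and -0.19. Counted without dox-treated replicate 3, 2 of the 13 SIN3 genes, 3 of the 8 CoREST genes, 2 of the 5 histone partners and 3 of the 8 deacetylases passed, where 28.9% of all genes did.

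The genes closest in pattern to *Mbd3* and *Hdac1*, the members with the smallest p-values, were found by the root mean square difference of log2 CPM over the 6 libraries, each gene centred on its own mean. For *Mbd3* these were *Mrps26* (0.017), *Ankrd13c* (0.018) and *Rae1* (0.021), against a median of 0.261 for all other genes. For *Hdac1* they were *Ptpn11* (0.024), *Ubfd1* (0.029) and *Coq2* (0.029), against a median of 0.259. None of the 6 was past the threshold in limma, where their log2 fold changes were between -0.30 and -0.23, and all of these numbers describe likeness over 6 libraries only. The 6 were chosen as the nearest of all genes tested, so distances far below the median follow from that choice.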

How the data were processed

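Reads had been trimmed with Cutadapt and assigned to Ensembl transcripts of NCBIM37 with RSEM, and limma served for normalization. The values the authors deposited are log2 CPM (per 1000000 reads of an adjusted library size, 0.5 reads added before the log). How libraries were scaled, how low genes were filtered and whether strand was used in counting are not given in the sources used here. Whole reads were recovered from these values for depth and ratios. Fold changes on this scale understate low genes.

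A gene was tested where 3 or more libraries reached 1 CPM, which held for 12088. The fit was that of limma (version 3.58.1, R 4.3.3) without a block, adjusted over all of them by Benjamini–Hochberg at a threshold of 0.05. It was tried on simulated data whose changes were larger than those of the NuRD members, so changes of their size were not covered. Tables used Python 3.11.15 and pandas 2.3.3. The members, lists and tests were chosen with earlier results of these data known. Genes outside the members were named by rule: up to 5 called genes of a list, or the 2 with the smallest p where fewer were called, *Nanog*, *Mbd2*, *Chd3*, *Mta3*, *Zfpm1*, *Gata1* and the 3 nearest patterns. *Ikzf1*, *Ikzf3* and *Rcor2* fall outside this rule and were named after their values were seen. *Hdac4* was left out because 2 listed identifiers share the symbol. Alternatives varied the filter, reads added, scaling, weights, variance trend and block, and left out each library. Voom weights with the block, summed *Hdac1* reads and merged exon lengths were added after seeing the data. Positions are those of NCBIM37.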

Additional observations from a re-analysis of the deposited data

How the results depend on the processing

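The count of NuRD members called was 0 higher and 0 lower under all alternatives except array quality weights, with 2 lower, and leaving out dox-treated replicate 3, so that with each library left out in turn it ran from 0 to 1 lower. Quantile normalization turned the log2 fold changes of *Mta2* (0.0447), *Rbbp4* (0.0768) and *Rbbp7* (0.0443) positive, and scaling to the total turned that of *Rbbp4* (0.0217), where the median of all genes moved from -0.03 to 0.08. Over all genes, leaving out each library in turn gave 92 to 1801 higher and 36 to 1687 lower. A mean-variance trend gave 909 and 747, and array quality weights 2515 and 2601. The cause was not tested.

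With the replicate number as a block 53 genes were higher and 29 lower, and 0 of the 10 members passed (limma, as without it). The block lowered the calls to 0 for the alternative and accessory subunits and to 1 for the recruiting factors, with *Chd3* at an adjusted p of 0.098 and *Ikzf2* at 0.142. With voom precision weights and the block together, chosen after seeing the data, 575 genes were higher and 351 lower, 0 members passed, and *Chd3* (adjusted p = 0.0084) and *Ikzf2* (0.016) did. Deviations of same-numbered libraries correlated at 0.02, -0.12 and -0.30, so the numbers were not taken to pair the libraries. Left out in turn, the libraries gave 0 to 2 calls among the alternative and accessory subunits, 1 to 4 among recruiting factors, 0 to 2 in SIN3, 0 to 3 in CoREST, 0 to 2 among the histone partners and 0 to 3 among other deacetylases. The upper ends came without dox-treated replicate 3, where 28.9% of all genes passed.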
